A study of Homo sapiens with 6 samples.

Results

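The strongest accessible sites of control cardiomyocytes are the 1000 regions of chromosomes 1 to 22 that ranked highest among called peaks in every control library. Peaks of all 6 libraries that overlapped by 1 bp or more were merged into 157560 regions on hg19, of which 29224 lay on chromosomes 1 to 22 and held a peak in all 3 control libraries. Each region took, per library, the highest score percentile of its peaks. A score percentile is the share of a library's own list that scored no higher than the peak, with ties given their mean rank, so that 100 is the strongest peak of the list. Regions were ordered by the lowest of their 3 control percentiles and the first 1000 were kept, down to a percentile of 97.21. The control scores chose these sites, so their control percentiles are a description.

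Open chromatin was profiled with ATAC-seq, an assay whose Tn5 transposase inserts adapters into accessible DNA. The cells were ventricular-like cardiomyocytes derived from H9, an established human embryonic stem cell line. The groups were ZNF436 knockdown and control, with 3 libraries each, taken at day 15 of differentiation, and per the labels' protocols each replicate was a differentiation of its own. All groups share this 1 cell line, and the sources used here do not say how the knockdown was made or what the control cells received. ZNF436 is a KRAB zinc finger gene. Its own locus was not analysed here, and the loss of its product was not checked. The deposited lists held 115864, 102454 and 87871 peaks in the knockdown libraries (replicates 1, 2 and 3) and 50719, 53662 and 68342 in the control libraries. They give no read counts, so sequencing depth is unknown, and a percentile has a different base in each list. In bulk chromatin, fewer cells with an open site and less opening per cell cannot be told apart.

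As background, the strongest ATAC-seq sites of a cell are usually promoters of broadly expressed genes, whose nucleosome-free start regions are rich in CpG and in boxes for general factors such as SP1 (GC box) and NF-Y (CCAAT box). Sites that set a cell type apart are mostly distal enhancers and carry less signal. On hg19, satellite repeats beside centromeres, ribosomal repeats and nuclear copies of mitochondrial DNA are known to collect reads in excess in many sequencing assays, and such places are commonly removed with published exclusion lists. No such list was at hand, so the overlap of these sites with one was not tested.

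The promoters below include examples, picked by hand, of gene starts that lie under sites outside centromeres. What share of the sites lies at gene starts was not determined. TOMM40 encodes the import channel of the mitochondrial outer membrane, OSBP a sterol transport protein, DNM2 the endocytic GTPase dynamin 2 and EEF1A1 a translation elongation factor. TNNT2, cardiac troponin T, is set beside them as a cardiomyocyte gene whose start was not among the sites. Each run spans 250 bases before to 50 bases after the gene start, from RefSeq on GRCh38.p14 and on the gene's own strand, which is plus for TOMM40 and DNM2 and minus for OSBP, EEF1A1 and TNNT2. Capitals mark CCAAT boxes (CCAAT or its reverse ATTGG), GC boxes (GGGCGG or CCGCCC) and the NRF1 core (GCATGCG or CGCATGC).
TOMM40: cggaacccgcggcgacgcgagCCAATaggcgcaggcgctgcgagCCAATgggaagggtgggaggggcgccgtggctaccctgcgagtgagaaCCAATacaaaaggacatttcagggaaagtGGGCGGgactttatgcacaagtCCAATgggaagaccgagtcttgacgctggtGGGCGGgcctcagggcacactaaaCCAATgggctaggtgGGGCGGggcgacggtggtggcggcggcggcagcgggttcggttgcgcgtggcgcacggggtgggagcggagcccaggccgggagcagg
OSBP: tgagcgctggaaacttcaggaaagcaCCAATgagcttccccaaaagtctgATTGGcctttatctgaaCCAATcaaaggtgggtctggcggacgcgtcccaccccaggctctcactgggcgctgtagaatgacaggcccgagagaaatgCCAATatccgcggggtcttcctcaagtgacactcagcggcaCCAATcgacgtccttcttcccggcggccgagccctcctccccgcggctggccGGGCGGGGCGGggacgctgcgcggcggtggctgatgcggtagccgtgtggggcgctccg
DNM2: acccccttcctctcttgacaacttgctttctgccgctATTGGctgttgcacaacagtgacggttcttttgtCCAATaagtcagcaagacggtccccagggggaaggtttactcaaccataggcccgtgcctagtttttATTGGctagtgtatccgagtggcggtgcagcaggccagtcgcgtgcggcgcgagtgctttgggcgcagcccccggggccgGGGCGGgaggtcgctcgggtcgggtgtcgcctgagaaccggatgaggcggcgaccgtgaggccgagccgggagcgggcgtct
EEF1A1: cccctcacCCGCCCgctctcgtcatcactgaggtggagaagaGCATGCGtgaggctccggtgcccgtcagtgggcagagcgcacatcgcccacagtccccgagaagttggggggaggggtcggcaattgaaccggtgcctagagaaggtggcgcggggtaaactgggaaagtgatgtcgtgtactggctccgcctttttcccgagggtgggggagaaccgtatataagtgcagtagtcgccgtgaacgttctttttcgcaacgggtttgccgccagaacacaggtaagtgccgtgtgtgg
TNNT2: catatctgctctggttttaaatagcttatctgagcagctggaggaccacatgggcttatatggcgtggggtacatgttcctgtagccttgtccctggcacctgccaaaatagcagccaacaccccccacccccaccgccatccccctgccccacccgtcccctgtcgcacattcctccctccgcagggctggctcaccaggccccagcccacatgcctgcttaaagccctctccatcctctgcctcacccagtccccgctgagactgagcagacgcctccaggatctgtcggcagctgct

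A CCAAT box or its reverse occurred 5 times in the TOMM40 promoter, 5 times in that of OSBP and 3 times in that of DNM2. The EEF1A1 promoter held no CCAAT box but a GC box and an NRF1 core, and that of TNNT2 held none of these letters. TNNT2 does not stand for its list. Of 23 promoters of the cardiomyocyte list, 8 held a GC box, 7 a CCAAT box and 0 the NRF1 core. The TNNT2 window had 8 CpG dinucleotides, against 24 in EEF1A1, 27 in OSBP and DNM2 and 30 in TOMM40.

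The sites spread over all 22 autosomes but unevenly. Chromosome 19, a gene-dense chromosome that also carries large KRAB zinc finger clusters, held 122 sites, which is 12.2% of the sites and 5.46% of the 29224 control regions. On chromosome 19, 7.65% of control regions were sites, followed by 5.14% on chromosome 14 and 4.48% on chromosome 17. The lowest shares were 1.71% on chromosome 20, 1.75% on chromosome 13 and 1.77% on chromosome 15.

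**Figure D1:**
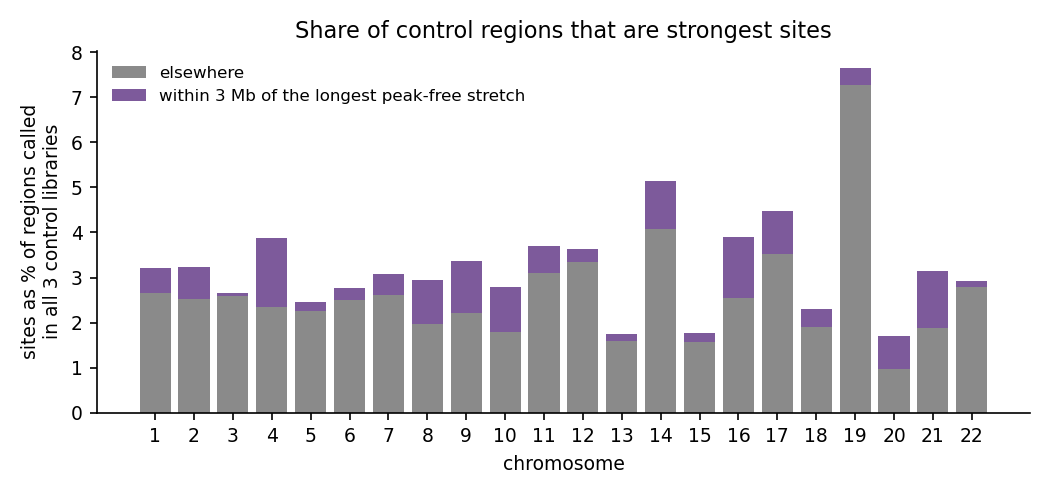
Share of the regions called in all 3 control libraries that were among the 1000 strongest sites, for each autosome, in percent. Purple parts are sites within 3 Mb of the chromosome's longest peak-free stretch and grey parts all others, with chromosome 19 highest at 7.65%.

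The longest stretch of each autosome without a peak in any library, which on most is the unassembled centromere or short arm, served as a landmark. Regions within 3 Mb of it on either side are named flank sites or flank regions below. Of the sites, 188 (18.8%) lay in the flanks, against 6.36% of all 29224 control regions. The flank sites gathered at the very top of the order, with 8 of the first 10, 61 of the first 100 and 47 of the next 100. From rank 301 on, each 100 sites held between 4 and 10. Of the 122 sites on chromosome 19, 116 lay outside the flanks.

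**Figure D2:**
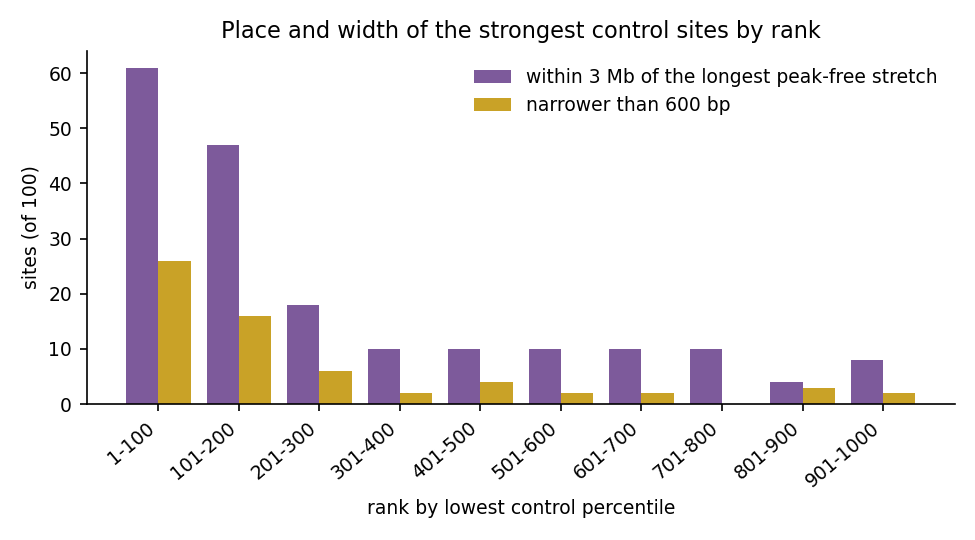
Number of sites in the flanks (purple) and number narrower than 600 bp (yellow) in successive sets of 100 sites, ordered by their lowest control percentile. Both counts are highest in the first 100, at 61 and 26.

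The single strongest site was chr1:121480794-121485488, which ends where the peak-free centromere of chromosome 1 begins. It ranked first in all 6 lists, with scores of 273163, 304883 and 251631 in knockdown and 302231, 278130 and 253000 in control (replicates 1, 2 and 3). The next were chr9:66970956-66972335, chr19:27731783-27740645, chr7:61967165-61973489 and chr18:18510906-18520394, all in flanks. They ranked between 3 and 8 in every knockdown list and between 3 and 7 in every control list. Of the sites ranked 6 to 10, chr10:42373777-42397298, chr10:42596690-42600786 and chr21:9825438-9827750 were flank sites as well. The other two were chr18:106060-112551, close to the chromosome's end, and chr1:91852783-91853234, only 452 bp wide. Scores of different libraries are on scales of their own, so these values order peaks within a list only.

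Of the 10 highest sites outside the flanks, the other 8 had ranks from 13 to 25, and 6 of them were narrower than 600 bp. These 6 were chr11:85195011-85195335 with 325 bp at rank 13, chr8:70602287-70602678 at rank 17, chr1:156186231-156186726 with 496 bp at rank 20, chr5:71146740-71147014 with 275 bp at rank 21, chr17:33478113-33478443 with 331 bp at rank 22 and chr17:31149418-31149975 with 558 bp at rank 25. The wider ones were chr1:569393-570368 with 976 bp at rank 19 and chr5:134259073-134264291 with 5219 bp at rank 23. Only for the 2 wider loci is it general knowledge of hg19 that nuclear copies of mitochondrial DNA lie there, and no sequence of any of the 8 was examined. In the knockdown lists the 8 sites ranked between 12 and 27, against 13 to 29 in the control lists.

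The sites were wide. Their median merged width was 1564 bp (139 to 24574 bp), against 851 bp over all control regions, and 63 (6.3%) were narrower than 600 bp, against 27.0% of all control regions. Narrow sites stood mainly at the top, with 26 in the first 100. At the other end, 36 sites were wider than 5 kb, 30 of them in flanks. The widest were chr16:46385802-46410375 with 24574 bp, chr10:42373777-42397298 with 23522 bp, chr15:20544068-20564613 with 20546 bp, chr17:22244611-22262477 with 17867 bp and chr4:49104027-49118063 with 14037 bp, all in flanks. A merged width takes in peaks of all 6 libraries, and wider regions have more peaks to take the highest score from.

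Some sites had another close by, but other control regions were not counted this way for comparison. When sites at most 100 kb apart were joined, 665 stood alone and 335 formed 121 runs, of which 13 held 5 sites or more. Of these 13 runs, 8 held flank sites, led by 10 sites in chr2:92269029-92326169 and 8 in chr4:49093267-49158648. Away from flanks, the longest runs were 7 sites in chr2:132997300-133105816 and 6 each in chr19:50142466-50382241 and chr19:36422135-36706428.

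Gene names were set on the sites from a table of gene positions on hg19 written from general knowledge, since no hg19 annotation was at hand. A gene was kept only where its chromosome and length, within 10%, matched RefSeq, and 83 of 103 listed genes passed. Of 39 cardiomyocyte genes so checked, which cover sarcomere, calcium handling, channel and transcription factor genes, 1 had a site within 5 kb and 0 had a site at its start, meaning within 1 kb. At their starts, 31 of the 39 had a region called in all 3 control libraries, against 0 of 4 endoderm and 0 of 4 skeletal muscle genes, 1 of 2 smooth muscle, 1 of 3 endothelial, 1 of 2 pluripotency, 3 of 5 fibroblast and 1 of 1 neural genes. Most of these other lists are too short to set the cell type apart by such a count.

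The lowest control percentile at those 31 cardiomyocyte starts had a median of 76.7 and ran from 1.70 to 93.7, below the 97.21 that the last site reached. The same regions had a median lowest knockdown percentile of 92.2, on lists that are longer. ISL1, a factor of cardiac progenitors, came nearest, with percentiles of 97.31, 97.04 and 98.33 in knockdown and 95.48, 93.69 and 94.00 in control. At the TNNT2 start, in chr1:201345181-201347707, they were 97.80, 95.70 and 98.25 in knockdown and 86.57, 91.09 and 95.97 in control. At the start of TTN, which encodes the sarcomere spring titin, they were 97.52, 98.12 and 98.01 in knockdown and 79.43, 90.46 and 97.21 in control. Control replicate 3 was the highest control library at both of these starts. NPPA, the atrial natriuretic peptide gene, stood lowest, with 79.45, 70.46 and 76.16 in knockdown and 27.70, 1.70 and 45.64 in control. The groups overlapped at TNNT2 and not at ISL1, TTN and NPPA, where knockdown was higher. Over all 27889 autosomal regions called in all 6 libraries, 45.6% had every knockdown percentile above every control one, so such a separation is common on these lists.

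The exception among cardiomyocyte genes was CACNA1C, which encodes the pore of the cardiac L-type calcium channel. The site chr12:2364960-2365251, 292 bp wide and ranked 810, lies inside the gene and not at its start, and whether it is exonic or intronic was not determined. Its percentiles were 88.71, 92.46 and 95.99 in knockdown and 97.66, 99.35 and 99.23 in control. All knockdown values were under all control values here, as they were in 2.13% of the 27889 regions. Among the 997 sites called in all 6 libraries, which control scores chose, that share was 6.82%. At the CACNA1C start itself they were 93.99, 92.74 and 92.51 in knockdown and 73.18, 51.91 and 87.17 in control, so site and start stood in opposite order.

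In control, genes used by every cell came closer to the sites than cardiomyocyte genes. In knockdown these gene sets stood closer together, with a median lowest percentile of 93.6 at housekeeping starts and 92.2 at cardiomyocyte starts. All 18 checked housekeeping genes had a region at the start called in all 3 control libraries, with a median lowest control percentile of 92.4, and 1 of them was a site. That was EEF1A1 at chr6:74229891-74231830, ranked 219, with 98.66, 98.89 and 99.02 in knockdown and 99.38, 99.35 and 99.55 in control. Its groups did not overlap, with knockdown lower, and like the CACNA1C site it was chosen by its control scores. TBP, the TATA-binding protein gene, and B2M, a subunit of class I antigen presentation, came just short at control ranks 1021 and 1036. The 5 checked early response genes, which include JUN, FOS and EGR1, had a median of 93.1 and no site.

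**Figure D3:**
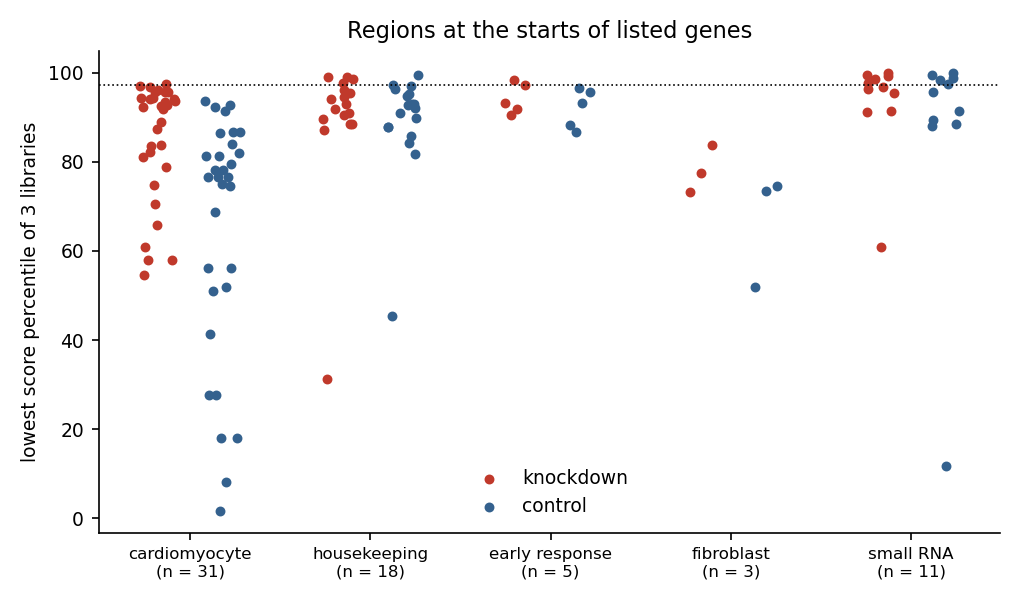
Lowest score percentile among the 3 libraries of each group (knockdown red, control blue) for the region at each gene's start, by gene list. The dotted line is the lowest control percentile of any site, 97.21, and all 31 cardiomyocyte starts lie below it in control.

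Genes of small and structural RNAs supplied further sites. This list was drawn up after values had been seen. Of 11, 5 had a site at the start. RPPH1, the RNA of RNase P that trims transfer RNA precursors, ranked 176, with 99.79, 99.81 and 99.56 in knockdown and 99.51, 99.51 and 99.55 in control. Its region lies in a flank. RMRP, the RNA of RNase MRP, ranked 409, RN7SK, which restrains the elongation factor P-TEFb, ranked 593, and RN7SL1, the RNA of the signal recognition particle, ranked 882. RN7SL2, which has near-identical sequence to RN7SL1, did not qualify, and reads from such copies may be split between them.

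The site ranked 11, chr20:26188643-26190578, holds MIR663A and lies in a flank. It ranked 16, 17 and 17 in the knockdown lists and 13, 13 and 12 in the control lists. The microRNA made there has the following mature sequence in RefSeq, shown because it names the locus, with its seed (bases 2 to 8) in capitals.
hsa-miR-663a: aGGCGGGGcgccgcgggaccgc

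For a view of the promoters under the sites, 18 genes recognised at sites were added, picked because they lie there, so nothing is read from their number. They include USP5, which takes apart free ubiquitin chains, the transcriptional repressor gene HBP1, HMGCS1 of sterol synthesis, PRMT1, an arginine methyltransferase, and EIF2AK3, the endoplasmic reticulum stress kinase PERK. DNM2 at rank 164 had 99.73, 99.81 and 99.82 in knockdown and 99.54, 99.55 and 99.55 in control. USP5 at rank 175 had 99.83, 99.75 and 99.82 in knockdown and 99.51, 99.57 and 99.72 in control. For TOMM40 at rank 195 they were 99.73, 99.73 and 99.51 in knockdown and 99.58, 99.43 and 99.58 in control. For DNM2 and USP5 all knockdown values exceeded all control values, as in 45.6% of the 27889 regions, and for TOMM40 the groups overlapped.

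RefSeq promoters were matched for 17 genes with a site at the start. A CCAAT box was present in 13 of the 17, against 34.4% of all 33477 autosomal promoters, and a GC box in 15 of the 17, against 45.0%. The ETS core CCGGAAG was in 3 (10.2% of all promoters), the YY1 core AAGATGG in 3 (5.78%), the NRF1 core GCATGCG in 2 (3.80%) and TATAAA in 1 (11.6%), each read on both strands. The median number of CpG dinucleotides was 27 in the 17 promoters, 8 in 23 promoters of the cardiomyocyte list and 14 in all. A match to these letters is a description of the sequence and not a bound site, and the genes were picked by hand.

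Nearly all sites were also called in knockdown. Peaks covered 1000, 999 and 997 of the 1000 sites in the 3 knockdown libraries, and 997 in all of them. Over all 29224 control regions, the shares called were 98.0%, 98.5% and 96.4%, and 95.4% were called in all 6 libraries. The 3 sites missing somewhere were all in flanks. Control regions in flanks were missed more often in general, with 1490 of 1858 called in all 6 libraries, against 27889 of all 29224. The site chr16:33873861-33874572 was called in knockdown replicate 1 only, at 92.73, against 98.14, 97.96 and 97.47 in control. The site chr12:34372607-34372745, at 139 bp the narrowest of all, and the site chr21:10855993-10857000 were missing from knockdown replicate 3 only. In the other knockdown libraries they stood at 99.91 and 99.89 and at 99.82 and 99.84. A site with no peak is one that the caller did not report, which is not a measure of closed chromatin.

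The median percentile of the sites was 99.48, 99.43 and 99.29 in the knockdown libraries and 98.83, 98.87 and 99.07 in the control libraries. Percentiles from lists of different length cannot show whether a site changed, and knockdown lists are longer. When every list was cut to the strongest peaks of the shortest, the medians over the sites called in all 6 were 98.81, 98.79 and 98.78 in knockdown and 98.83, 98.80 and 98.75 in control. Counted by rank, 712, 723 and 710 sites were among the strongest 1000 peaks of their knockdown list, and 842, 821 and 768 among those of their control list. The strongest 2000 peaks held 895, 924 and 902 sites in knockdown and 1000 in each control library, where the rule itself fixes the number.

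Few sites stood low in a knockdown list. Below a percentile of 95 stood 34, 16 and 39 sites in the knockdown libraries and 0 in each control library, where the rule allows none. Of these, 22, 8 and 22 were flank sites. The lowest values were 86.17, 88.96 and 4.44, so knockdown replicate 3 held the extreme, at the flank site chr14:19001758-19002418. Only 13 sites had all their called knockdown percentiles under 95, and 9 of these were in flanks.

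Of the 997 sites called in all 6 libraries, 68 (6.82%) had all 3 knockdown percentiles under all 3 control percentiles, and over the 27889 regions called in all 6 this was 2.13%. In the other direction, 478 sites (47.9%) had all knockdown percentiles above all control ones, over a background of 45.6%. With lists of equal length, 193 of 995 sites (19.4%) were lower, over a background of 11.2%, and 128 (12.9%) higher, over 11.9%. Since high control scores chose the sites, some lean to lower knockdown values is built into these counts, and nothing is read from them.

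The same counts, given for flanks and the rest apart, are likewise a description. In flanks, 40 of 185 sites (21.6%) were lower in knockdown without overlap, and elsewhere 28 of 812 (3.45%). Among all control regions called in all 6 libraries the shares were 19.1% in flanks and 1.18% elsewhere. With lists of equal length the shares were 38.0% of flank sites and 15.2% of the others, against 26.3% and 10.4% of the control regions there.

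**Figure D4:**
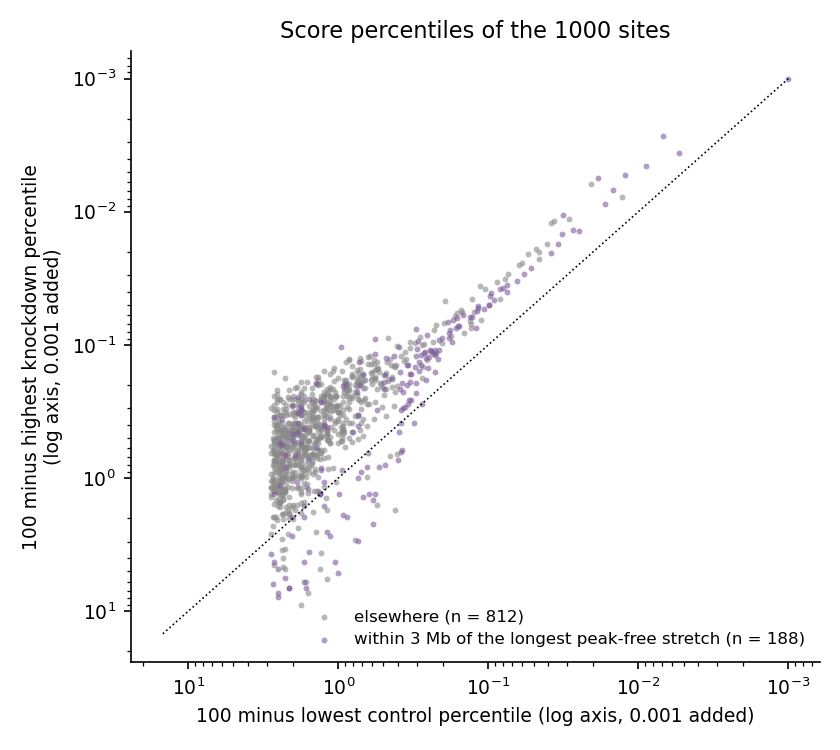
Highest knockdown percentile of each site (vertical) against its lowest control percentile (horizontal), both as 100 minus the percentile on log axes that run from weak to strong. Points under the dotted diagonal are 69 sites whose called knockdown percentiles were all below every control one, 41 of them in flanks (purple).

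Of the 10 sites whose highest knockdown percentile was lowest, 7 lay in flanks. These 10 are ordered by their highest knockdown percentile, so that a single low library does not bring a site in. First in this order was chr20:59621032-59621282, outside the flanks, 251 bp wide and ranked 629, with percentiles of 87.26, 90.50 and 90.94 in knockdown and 98.22, 98.69 and 98.91 in control. The site chr16:33864952-33867425 had 86.73, 92.17 and 90.50 in knockdown and 97.88, 98.44 and 97.47 in control, and it lies next to the site of chromosome 16 that was missing from 2 knockdown libraries. At chr1:2583528-2587904, near the end of chromosome 1, they were 86.17, 92.74 and 90.04 in knockdown and 98.99, 99.08 and 98.41 in control. In all 3 cases every knockdown value lay under every control value. Choosing sites by high control percentiles and these 10 by low knockdown ones builds in that order, so nothing is read from it. Replicate 1 was the lowest knockdown library in all 3 cases.

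The other flank sites among the 10 each had a highest knockdown percentile between 92.73 and 93.97. They were chr16:33873861-33874572, chr15:21315518-21316246, chr9:68410012-68422767, chr14:19007766-19008428, chr17:21906137-21907174 and chr4:49293721-49294617. The last of the 10, chr16:1075259-1075709, had 92.11, 93.97 and 93.42 in knockdown and 98.36, 99.03 and 98.86 in control and lies outside the flanks. At chr4:190154781-190155790, near the end of chromosome 4, the values were 87.26, 88.96 and 94.23 in knockdown and 98.96, 99.22 and 98.80 in control. At chr12:133343288-133344143, near the end of chromosome 12, they were 95.17, 94.99 and 31.17 in knockdown and 99.22, 99.41 and 98.68 in control, with knockdown replicate 3 far under the rest.

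A comparison that the choice of sites does not fix was made by choosing 1000 sites from 2 control libraries and reading the control library left out beside the knockdown libraries. With control replicate 1 left out, 776 of the sites called in all libraries were among the strongest 1000 peaks of that library, against 708, 715 and 705 in knockdown. With control replicate 2 left out the counts were 699, 713 and 703 in knockdown and 765 in the control library. With control replicate 3 left out they were 697, 715 and 702 in knockdown and 745 in the control library. At this cut the left-out control library held more of the sites than any knockdown library each time. Median percentiles of these sites went the other way, at 98.79, 98.87 and 99.07 in the left-out libraries and 99.29 to 99.48 in knockdown. With lists of equal length they were 98.79, 98.80 and 98.75 in the left-out libraries and 98.78 to 98.84 in knockdown. Each reading has 1 control library, so no test was made.

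For the strongest 1000 peaks, the same order of counts was seen in flanks and elsewhere. Of 186 flank sites chosen without control replicate 1, the strongest 1000 peaks held 127, 143 and 127 in knockdown and 172 in the control library left out. Of the 810 other sites they held 581, 572 and 578 in knockdown and 604 in that control library. Without control replicate 2, they held 128, 147 and 128 of 185 flank sites in knockdown and 170 in the control library, and without control replicate 3, 125, 143 and 128 of 198 in knockdown and 160 in the control library. Knockdown replicate 2 held the most flank sites of the knockdown libraries each time. Over flank and other sites together, 31, 17 and 35 stood below a percentile of 95 in knockdown and 14 in control replicate 1, left out. With control replicates 2 and 3 left out, the counts were 28, 15 and 33 against 3 and 46, 24 and 51 against 3. With lists of equal length, in the same order, they were 69, 44 and 63 against 13, 57, 37 and 55 against 6 and 92, 62 and 82 against 17. The same counts over all regions are not given, so nothing is read from these.

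Sites with all 3 knockdown percentiles under the left-out control library numbered 77 (7.73%), 88 (8.84%) and 118 (11.8%) with control replicates 1, 2 and 3 left out. The same over all regions called in all 6 libraries was 5.44%, 7% and 8.23%. With lists of equal length the shares of sites were 29.8%, 26.7% and 28.5%, over a background of 31.7%, 30.7% and 29.1%. The sites stood above the background with the lists as deposited and below it with lists of equal length. Far more sites had all 3 knockdown percentiles above the left-out control library, at 738 (74.1%), 719 (72.2%) and 570 (57.2%), over a background of 76.7%, 73.2% and 58.4%. With lists of equal length these shares were 30.5%, 32.8% and 27.8%, over 31.4%, 33.7% and 28.9%. For flank sites with the lists as deposited the shares were 23.7%, 23.8% and 26.8%, over 28.5%, 31.8% and 26.0% of all flank regions. For flank sites with lists of equal length the shares were 50.8%, 46.1% and 41.6%, over 43.0%, 43.0% and 39.7% of all flank regions.

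Every knockdown library had wider peaks at the sites than any control library, a measure that the rule did not use. The strongest peak per site had a median width of 1320.5, 1279 and 1260 bp in the knockdown libraries and 1035.5, 1060 and 1077 bp in the control libraries. The narrowest knockdown median was thus above the widest control median. The means were 1286.5 ± 30.9 bp in knockdown and 1057.5 ± 20.9 bp in control (SD, n = 3 each; two-sided exact permutation p = 0.1), a ratio of 1.22. With 3 against 3 libraries 0.1 is the smallest p possible, so no such test can pass 0.05. Over the 10 measures tested this way the Benjamini-Hochberg adjusted value of each p of 0.1 was 0.111. Over all control regions called in all 6 libraries the median width was 665 ± 38.2 bp in knockdown and 442 ± 41.2 bp in control (SD, n = 3 each; two-sided exact permutation p = 0.1), a ratio of 1.51. The ratio was therefore smaller at the strongest sites than over control regions at large, and that difference was not tested.

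In flanks the widths were 1162 ± 40.6 bp in knockdown and 1076 ± 34.9 bp in control, and elsewhere 1301 ± 40.5 bp in knockdown and 1056 ± 20.9 bp in control (SD, n = 3 each; two-sided exact permutation p = 0.1 for both). The ratio was 1.08 in flanks and 1.23 elsewhere.

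With the sites as chosen, each knockdown library had fewer peaks per site than each control library. Peaks of all 6 libraries were merged, so a wide peak can join several peaks of another library into a single site. The count is therefore not independent of the peak widths above. A called site held 1.253, 1.215 and 1.284 peaks in the knockdown libraries and 1.29, 1.317 and 1.353 in the control libraries. Replicate 3 was the highest of both groups. The means were 1.25 ± 0.034 in knockdown and 1.32 ± 0.032 in control (SD, n = 3 each; two-sided exact permutation p = 0.1). The groups overlapped with 500 sites (difference -0.0508, exact permutation p = 0.5), with the stronger 50% of each list (-0.0374, p = 0.3) and when peaks at most 100 bp apart were merged (-0.0636, p = 0.2). Away from flanks the means were 1.17 ± 0.0103 in knockdown and 1.26 ± 0.0031 in control with the same p, and in flanks 1.62 ± 0.159 in knockdown and 1.57 ± 0.155 in control (SD, n = 3 each; two-sided exact permutation p = 0.7).

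Together the peaks covered 1712, 1704 and 1647 kb of the sites in knockdown and 1503, 1504 and 1532 kb in control. That is 87.1 ± 1.83% of site bases in knockdown and 78.1 ± 0.837% in control (SD, n = 3 each; two-sided exact permutation p = 0.1). The site bases come from peaks of all 6 libraries merged, so the covered share is not independent of peak width either. Depth is unknown, and its part in these differences was not tested.

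**Figure D5:**
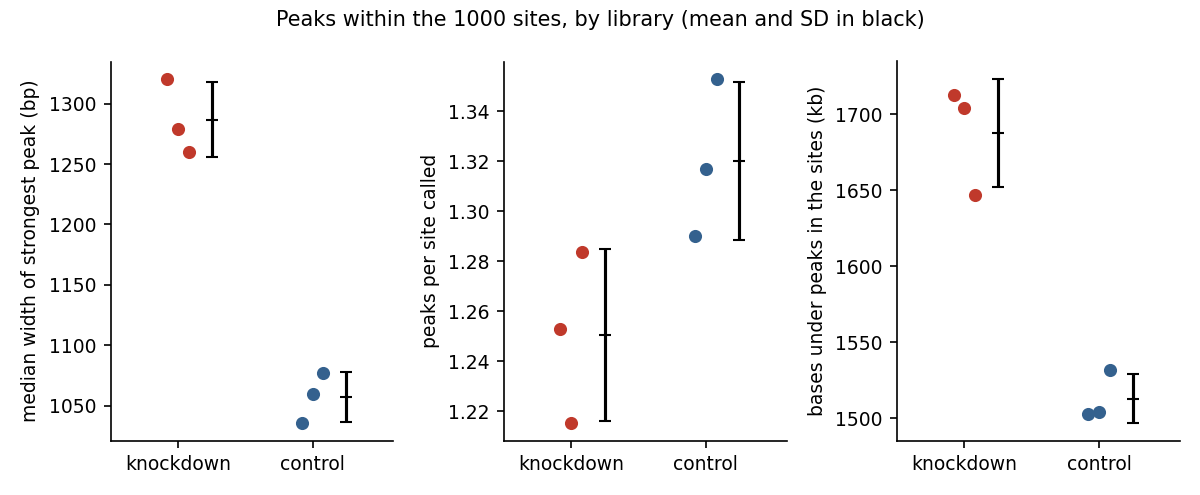
Median width of the strongest peak in bp, peaks per site called and kb of the sites under peaks, with 1 point per library (knockdown red, control blue) and the mean ± SD in black. The axes do not start at 0. Widths and covered kb lie higher, and peaks per site lower, in all 3 knockdown libraries than in any control library.

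The same rule applied to the 3 knockdown libraries gave a list of 1000 that shared 757 sites, which is 75.7% of each list. At the very top the lists were closer, with 88 of the first 100 in common. Of flank sites 130 of 188 (69.1%) were shared and of the others 627 of 812 (77.2%). The 243 control sites that were not shared had a median order of 1497 in knockdown, and 165 of them were within the first 2000 there. Of these 243, 58 were flank sites, against 13 of the 243 found in knockdown alone.

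At the threshold, the 5 last sites and the 5 regions after them differed little in the control lists. The last 5, chr22:18883660-18884643, chr22:38053760-38055436, chr22:43010023-43012240, chr3:136470128-136472380 and chr7:30323496-30325916, all had a lowest control percentile of 97.21, as did the regions ranked 1001 and 1002. The regions ranked 1003 to 1005 had 97.20. In knockdown the highest percentiles ran from 96.29 to 98.94 in the last 5 sites and from 98.93 to 99.44 in the 5 regions outside.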

How the data were processed

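ATAC-seq peak lists of 3 ZNF436 knockdown and 3 control libraries were used as the authors deposited them, on hg19. Per the submitters' processing notes, Bowtie2 2.4.5 and bedtools 2.30.0 were used, and their roles are not stated in what was used here. Peak names in the deposited lists begin with MACS and carry 1 library's name, and each peak has an integer score from the authors' lists. The meaning of the score, the caller's threshold, any Tn5 shift and any filter on duplicates are not stated in what was used here. Peaks were ranked by score inside each list, and scores were never compared across lists.

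Merging, percentiles, flanks and counts were computed in Python 3.11.15 with pandas 2.3.3, numpy 2.4.6 and scipy 1.17.1. The code of the rule was run on simulated lists whose planted sites scored far above all others. Such a run checks the code and not how the rule behaves on these data. Equal lists keep the strongest peaks of each list, with ties broken at random from a fixed seed. Tests were exact permutations of 3 against 3 libraries, two-sided. The members, flanks and lists were chosen with earlier results of these data known. Genes were named by the rule of a site within 5 kb of a listed gene. Sites were named where they were the first 10, the 5 widest, at the threshold, missing from a knockdown library or the 10 lowest in knockdown. Other sites, small RNA genes and recognised genes were named after their values were seen. Alternatives were other merging and tie rules, equal or stronger lists, 500 or 2000 sites, chromosome X, the mean control percentile, no flanks, the replicate block and leaving out each library. Flanks of 1 Mb were added after the data were seen.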

Additional observations from a re-analysis of the deposited data

How the results depend on the processing

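The width, peak number and covered bases kept their direction under every alternative run, including the replicate block. The separation of the groups in peaks per site was lost with 500 sites, the stronger 50% of each list and merging within 100 bp (exact permutation p = 0.5, 0.3 and 0.2). Same-numbered libraries are not stated to be paired. Correlations of their deviations over 27889 regions were 0.000828, 0.0564 and 0.0889, and those of differently numbered libraries ran from -0.111 to 0.0579. With the replicate block the differences (knockdown minus control) of 229 bp, -0.0693 peaks per site and 174.9 kb each gave an exact sign-flip p of 0.25, the smallest possible. Leaving out 1 library gave 212 to 242 bp, -0.0859 to -0.0516 peaks per site and 163 to 195 kb. It gave 99.6% to 99.9% of sites called in every knockdown library, 18.7% to 20.1% in flanks and 73.5% to 75.4% shared with the knockdown list. The share called was 99.5% with the stronger 50% of each list and 100% without flank sites. The mean of the knockdown median percentiles, 99.40, was 98.79 with lists of equal length, 98.80 with the stronger 50%, 99.68 with 500 sites and 98.82 with 2000. The left-out control library's median minus that of knockdown, -0.477 points, was -0.0166, -0.955, -0.245 and -0.849 in the same order, so it almost vanished with lists of equal length. The flank share was 29.2% with 500 sites, 13.05% with 2000 and 12.4% with flanks of 1 Mb. The share of all control regions is not given for flanks of 1 Mb, so 12.4% has no background here. The 1 cardiomyocyte gene with a site became 0 with 500 sites and 0 when only gene starts counted. Of the 1000 sites chosen from equal lists, 952 overlapped the original ones. Depth is unknown, percentiles depend on list length, 3 libraries a group cannot give a p under 0.1, and gene positions were checked by length only.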

Other observations

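The regions strongest in knockdown but outside the 1000 control sites were mostly near misses. Of these 243 regions, 164 lay within the first 2000 in control order, where their median order was 1552.5. Their median width was 1249 bp, against 1560 bp for the 243 control sites not shared. The highest in knockdown order was chr6:164166721-164167540, with percentiles of 99.67, 99.79 and 99.63 in knockdown and 96.92, 98.13 and 99.12 in control. Next was chr6:80920140-80920858, with 99.77, 99.70 and 99.60 in knockdown and 97.88, 96.14 and 97.86 in control. Lower in that order, with others between, was chr16:66442080-66442970, which was named after its values were seen. Its values were 99.68, 99.52 and 99.51 in knockdown and 94.07, 95.35 and 97.61 in control. Control replicate 3 was the highest control library at the first and the last of these. Scores of knockdown libraries chose them, so the differences are a description with no test.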
